A study of Mus musculus with 12 samples.

Results

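Mammalian mitochondria carry their own genome, and the 13 genes described here are its protein-coding genes, chosen as the rows of the count table whose symbol starts with mt-. They are 13 of the 36255 genes in the table. The GENCODE M21 annotation of GRCm38 holds 37 genes on the mitochondrial chromosome, of which 2 encode ribosomal RNAs and 22 transfer RNAs. Those 24 RNA genes are not analysed here.

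The counts come from poly(A)-selected RNA of mouse embryos, in a series that compares Skp1 wild type with knockout, Skp1 (Skp1a) being the adaptor subunit of SCF ubiquitin ligases. The 11 libraries fall into 6 groups, all at 9.5 days post coitum (dpc) unless stated: Skp1aKO (n = 2), Skp1acont (n = 2), Skp1acont PI (n = 1), wt at 9.0 dpc (n = 2), wt (n = 2) and wt PI (n = 2). Each library carries a lot number, 1 or 2. What "cont", "PI" and "lot" stand for is left unsaid by the labels, and no strain, allele or Cre driver is named. Nor is it stated that libraries of a group are from different embryos, and every p-value below reflects library-to-library spread alone, possibly technical. The tissue is labelled embryo while the culture note and the design text speak of embryonic stem cells and embryoid bodies. Skp1a itself took 258 and 318 CPM (counts scaled so that all libraries have the same total) in the libraries labelled Skp1aKO, 380 and 148 in those labelled Skp1acont, 338 in the Skp1acont PI library and 747 to 1048 in the 6 wt libraries. It therefore separated the 5 Skp1a-labelled libraries from wt, but not the libraries labelled Skp1aKO from those labelled Skp1acont.

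The mitochondrial genome is read from both strands as long precursor RNAs, which are cut mostly at the transfer RNAs that lie between the coding genes. Each mRNA then receives a short poly(A) tail, except that the human counterpart of mt-Nd6 is known to lack one. All of the encoded proteins are core subunits of oxidative phosphorylation (OXPHOS), the respiratory chain and ATP synthase, and they are assembled with many more subunits that are encoded in the nucleus and imported.

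By role, 7 of the genes encode subunits of complex I, NADH dehydrogenase, which takes electrons from NADH: mt-Nd1, mt-Nd2, mt-Nd3, mt-Nd4l, mt-Nd4, mt-Nd5 and mt-Nd6. Complex III, which passes electrons to cytochrome c, has 1 such subunit, cytochrome b, from mt-Cytb. The 3 core subunits of complex IV, cytochrome c oxidase, which reduces oxygen, come from mt-Co1, mt-Co2 and mt-Co3. ATP synthase, complex V, has 2, from mt-Atp6 and mt-Atp8. The genes run from mt-Nd1 (chromosome M, 2751 to 3707) to mt-Cytb (14145 to 15288). Their lengths range from the 204 bases of mt-Atp8 to the 1824 bases of mt-Nd5, with no introns. On the plus strand of the annotation lie 12 of them, and mt-Nd6 (13552 to 14070) lies on the minus strand.

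Several features of the sequence bear on how these genes are read and counted. The coding sequences of 3 members, mt-Co3, mt-Nd4 and mt-Cytb, stop at a lone T, and the stop codon is completed by the A residues of the poly(A) tail. Their last 24 bases are shown with that T in capitals, with mt-Co2 as an example of a full stop codon in capitals.
mt-Co3, chrM:9367-9390, plus strand: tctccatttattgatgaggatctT
mt-Nd4, chrM:11521-11544, plus strand: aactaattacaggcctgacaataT
mt-Cytb, chrM:15265-15288, plus strand: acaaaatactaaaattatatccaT
mt-Co2, chrM:7673-7696, plus strand: aactgatctgcttcaataattTAA

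Neighbouring genes also share bases. The end of mt-Atp8 and the start of mt-Atp6, which are carried on 1 mRNA, overlap by 43 bases (capitals), and those of mt-Nd4l and mt-Nd4, another shared mRNA, by 7 bases (capitals).
mt-Atp8 and mt-Atp6, chrM:7921-7975, plus strand: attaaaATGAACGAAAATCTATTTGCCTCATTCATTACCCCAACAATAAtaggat
mt-Nd4l and mt-Nd4, chrM:10161-10179, plus strand: actacaATGCTAAaaatta
The genes mt-Nd5 and mt-Nd6 overlap by 14 bases on opposite strands. The sources used here do not give whether counting used strand, and RNA of opposite strands cannot be told apart in these counts.

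A near-identical copy of part of the mitochondrial genome lies in the nuclear genome, on the minus strand of chromosome 1 between 24611535 and 24616197. It is annotated as 7 pseudogenes, Gm28439 (matching mt-Nd4), Gm10222 (mt-Nd4l), Gm28438 (mt-Nd3), Gm28437 (mt-Co3), Gm10925 (mt-Atp6), Gm28661 (mt-Co2) and Gm29216 (the end of mt-Co1). Over the aligned bases 5 of them are identical to the mitochondrial gene, and the other two differ at 1 base each. Those are T3C in Gm28438 against mt-Nd3 and A1066T in Gm29216 against mt-Co1, counted from 1 at the first base of the mitochondrial gene. They are shown with the differing base in capitals, because few reads can tell gene and copy apart.
mt-Nd3, bases 1 to 17: atTaacctgtacactgt
Gm28438: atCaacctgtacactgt
mt-Co1, bases 1063 to 1080: ggaAttgttttatccaac
Gm29216: ggaTttgttttatccaac

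Of all stretches of 50 bases in mt-Co2, 100% also occur in a nuclear transcript of the annotation. The share is 99.9% in mt-Co3, 99.5% in mt-Atp6, 98.8% in mt-Nd4l and 98.0% in mt-Nd3. It is 62.2% in mt-Nd4 and 51.1% in mt-Co1, 8.19% in mt-Nd2 and 7.61% in mt-Nd5, and 0 in mt-Nd1, mt-Atp8, mt-Nd6 and mt-Cytb. Only the last 4 genes thus had no exact match of that length among annotated nuclear transcripts. The rest of the nuclear genome was not searched. How the authors treated reads with a mitochondrial and a nuclear place is not given in the sources used here.

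Counts were spread unevenly between the members and their copies. Gm29216 held 40.8% to 59.5% of the summed counts of itself and mt-Co1 in all 11 libraries, from 5271 to 57444 counts. By contrast, Gm28439, Gm10222 and Gm28661 had 0 counts in every library, although their sequences are identical to the mitochondrial genes over their length. The row for Gm10925 divided by lot: the 6 libraries of lot 1 had 0 to 3 counts and the 5 of lot 2 had 268 to 11046. In the 3 lot 2 wt libraries that was 13.1% of the mt-Atp6 and Gm10925 counts at 9.0 dpc, 13.3% at 9.5 dpc and 5.61% in PI. Gm28438 held 28.9% of the mt-Nd3 and Gm28438 counts in the lot 1 library labelled Skp1aKO, 21.5% and 54.8% in those labelled Skp1acont, and at most 0.755% in the other 8 libraries. Results for mt-Nd3, mt-Atp6 and mt-Co1 with the copies' counts added stand beside those that they alter most, an addition chosen after seeing the data.

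**Figure D1:**
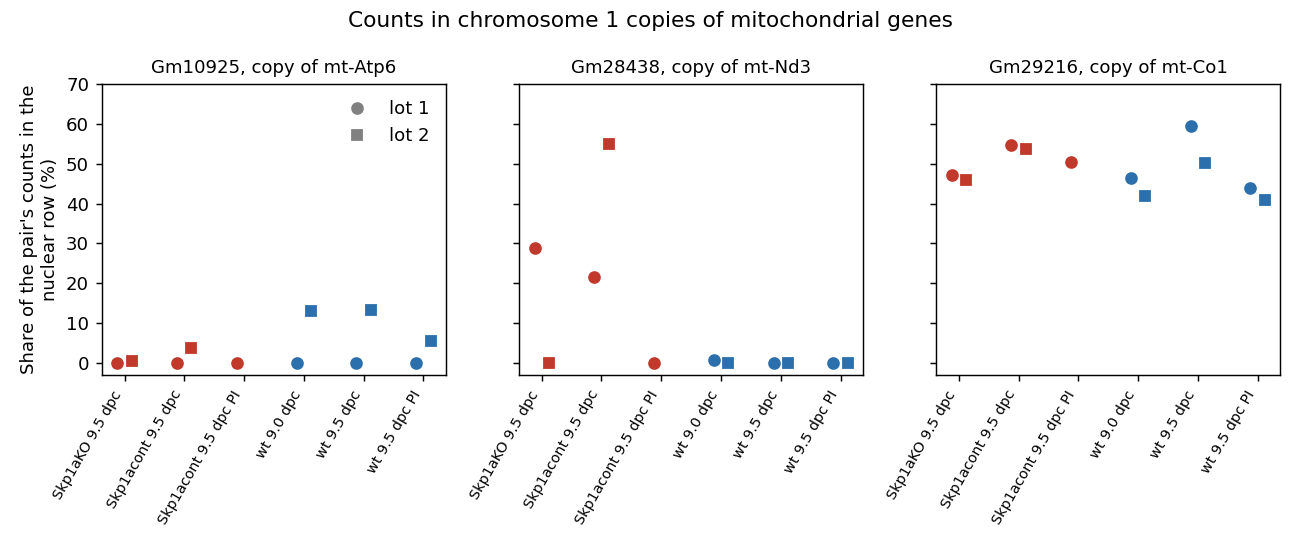
Share of the summed counts of a mitochondrial gene and its chromosome 1 copy that lie in the nuclear row (%, vertical axis), for each library by group. Each point is 1 library, circles are lot 1, squares are lot 2, red is Skp1a-labelled and blue is wt. Gm29216 lies between 40.8% and 59.5% throughout, while Gm10925 holds 0.0123% or less in lot 1 and 0.624% to 13.3% in lot 2.

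The 13 mRNAs took a larger share of the counts in every Skp1a-labelled library than in any wt library. Their summed share was 10.2% and 8.72% in the libraries labelled Skp1aKO, 5.98% and 15.8% in those labelled Skp1acont and 7.30% in the Skp1acont PI library. It was 2.44% and 2.50% in wt at 9.0 dpc, 4.01% and 3.63% in wt at 9.5 dpc, and 2.75% and 2.83% in wt PI. The 2 sets of libraries did not overlap: the median was 8.72% in the Skp1a-labelled and 2.79% in the wt libraries, a ratio of 3.13, and the lowest Skp1a-labelled share was 1.49 times the highest wt share. The highest share came from Skp1acont lot 2, the library with the fewest counts, and the other 4 Skp1a-labelled libraries span 5.98% to 10.2%. With the chromosome 1 copies added the shares were 6.65% to 18.4% and 2.57% to 4.37%. In bulk RNA, fewer cells of a type and less RNA per cell cannot be told apart, and a share depends on all other RNA in the library.

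**Figure D2:**
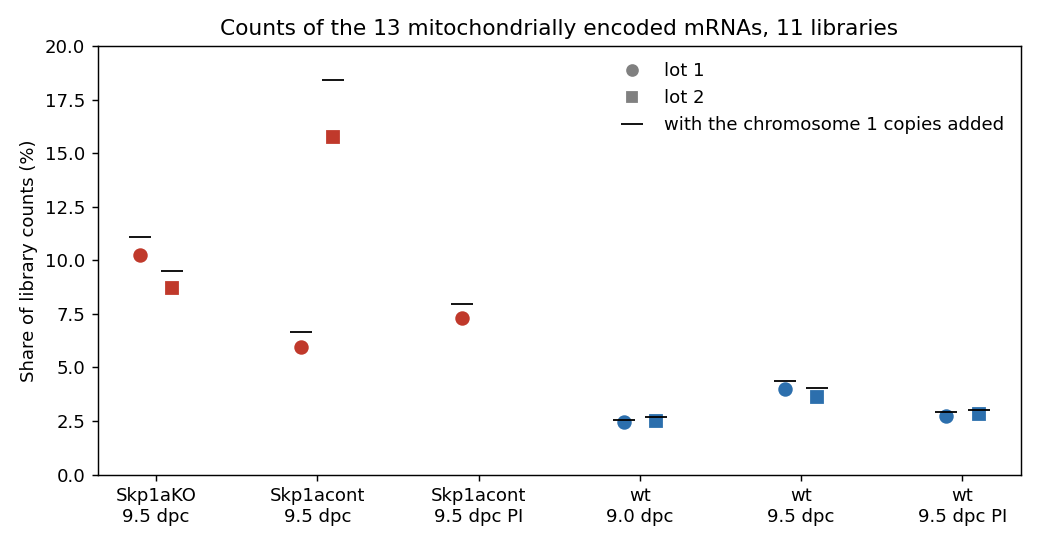
Summed share of library counts taken by the 13 mitochondrially encoded mRNAs (%, vertical axis) in each library, by group. Points are libraries, circles lot 1 and squares lot 2, red Skp1a-labelled and blue wt, and dashes show the share with the chromosome 1 copies added. The wt libraries sit between 2.44% and 4.01% and the Skp1a-labelled ones between 5.98% and 15.8%.

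Other features also differed between the Skp1a-labelled and the wt libraries. The Skp1a-labelled libraries gave 1.54% to 4.99% of their counts to 2042 chemoreceptor genes and 4.48% to 11.97% to the single gene Dock10, where wt libraries gave 0.337% to 0.595% and 0.532% to 2.27%. Within wt the Dock10 share divided by lot and did not follow the mitochondrial share. At 9.0 dpc, at 9.5 dpc and in PI it was 2.27%, 2.22% and 1.875% in lot 1, and 0.645%, 0.532% and 0.575% in lot 2. Cytosolic ribosomal protein genes took 3.33% to 9.11% in the Skp1a-labelled against 12.4% to 15.7% in the wt libraries. Summed markers of primitive erythroid cells (8 genes) lay at 976 to 6370 CPM against 6036 to 16959 CPM, and those of endothelium (5 genes) at 803 to 1693 against 130 to 380 CPM. In the endothelial sum Pecam1 alone had 710 to 1657 against 73.6 to 322 CPM, and the other 4 genes overlapped, at 31.4 to 92.5 against 51.2 to 66.2 CPM. Pecam1 also divided by lot within wt, with 302, 307 and 322 CPM in lot 1 and 76.0, 73.6 and 92.5 CPM in lot 2. Cardiac muscle markers (7 genes) summed to 20.5 to 86.2 CPM in the Skp1a-labelled against 7.43 to 38.9 CPM in the wt libraries. In that sum Ryr2 had 8.48 to 45.2 against 1.25 to 3.83 CPM and Myh7 6.54 to 22.0 against 0 to 1.38 CPM. The rest overlapped, and Myl7 was mostly lower, at 0 to 1.21 against 1.10 to 29.9 CPM. Neural tube and midbrain markers (11 genes) summed to 438 to 877 against 271 to 564 CPM. Mesenchyme markers (5 genes) summed to 168 to 253 against 145 to 388 CPM. Yolk sac endoderm markers (5 genes) summed to 4.52 to 22.0 against 1.95 to 3.30 CPM. Most of that sum was Apob, at 3.57 to 19.0 against 0.434 to 1.77 CPM. Apoa1 overlapped and tended lower, at 0 to 1.21 against 0.749 to 1.93 CPM. Afp overlapped as well, at 0.238 to 1.72 against 0 to 0.357 CPM. Of the same markers Ttr was at 0 in all Skp1a-labelled libraries, but also in all wt and wt PI libraries at 9.5 dpc. In wt at 9.0 dpc Ttr had at most 0.431 CPM. Apoa4 was at 0 in all wt libraries and in Skp1acont PI, and had at most 0.862 CPM in the other Skp1a-labelled libraries. Both genes thus overlapped between the sets. Higher in all Skp1a-labelled than in all wt libraries were 5 of 11 neural, 1 of 5 endothelial, 2 of 7 cardiac, 1 of 5 yolk sac, 1 of 5 mesenchyme and 0 of 8 erythroid markers, and 2 of 8 erythroid markers were lower. Of all genes tested 37.3% were higher in that way and 7.79% lower. Their part in the mitochondrial share was not tested. Library totals ran from 2320599 to 11607085 counts, mitochondrial counts from 97710 to 368752, and the smallest count of any member in any library was 288, for mt-Nd4l.

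Taken 1 gene at a time, 11 of the 13 mRNAs had a higher share of counts in all 5 Skp1a-labelled libraries than in all 6 wt libraries, where 37.3% of all 18837 genes tested did so. The exceptions were mt-Atp8 and mt-Nd3. For mt-Atp8 the Skp1a-labelled libraries ran from 0.215% to 0.371% (median 0.262%) and the wt libraries from 0.121% to 0.223% (median 0.139%), so that they overlapped only at the edge. For mt-Nd3 the ranges were 0.0311% to 0.123% (median 0.0623%) and 0.0194% to 0.0370% (median 0.0223%). With the counts of Gm28438 added they no longer overlapped, at 0.0396% to 0.123% (median 0.0963%) against the same wt range, so that with copies 12 of 13 stood apart, all but mt-Atp8. The widest gap was that of mt-Nd4, at 0.460% to 1.14% (median 0.642%) against 0.131% to 0.208% (median 0.153%), the lowest Skp1a-labelled library being 2.21 times the highest wt library.

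The 3 complex IV mRNAs also stood apart. The share of mt-Co1, the catalytic subunit, was 0.942% and 0.902% in the libraries labelled Skp1aKO, 0.549% and 2.14% in those labelled Skp1acont and 0.660% in Skp1acont PI. In wt it was 0.152% and 0.176% at 9.0 dpc, 0.243% and 0.299% at 9.5 dpc, and 0.215% and 0.243% in PI. The share of mt-Co2, which receives electrons from cytochrome c, was 0.990% to 3.38% (median 1.77%) in the Skp1a-labelled and 0.299% to 0.555% (median 0.383%) in the wt libraries. These medians differ by 4.61 times, the largest ratio of the 13 with and without copies, and the smallest was the 1.88 of mt-Atp8. With copies added the ratio for mt-Nd3 was 4.31, against 2.80 without. For mt-Co3 the shares were 0.737% to 2.62% (median 1.12%) against 0.292% to 0.541% (median 0.343%).

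Among the other complex I mRNAs mt-Nd1, near the start of the transcribed genes, lay at 0.582% to 1.56% (median 0.822%) against 0.293% to 0.405% (median 0.320%). For mt-Nd5 the shares were 0.112% to 0.305% (median 0.221%) against 0.0390% to 0.0615% (median 0.0527%), and for mt-Nd4l 0.0172% to 0.0440% (median 0.0366%) against 0.00719% to 0.0112% (median 0.00934%). The gap was narrower for mt-Nd2, at 0.199% to 0.304% (median 0.253%) against 0.0854% to 0.158% (median 0.123%), and for mt-Nd6, at 0.0922% to 0.240% (median 0.163%) against 0.0314% to 0.0715% (median 0.0491%). Cytochrome b, from mt-Cytb, had 0.777% to 1.43% (median 1.01%) against 0.313% to 0.457% (median 0.397%). Its sequence has no match of 50 bases among the annotated nuclear transcripts. The narrowest gap without overlap was that of mt-Atp6, the proton channel subunit of ATP synthase, at 1.19% to 2.31% (median 1.41%) against 0.538% to 1.09% (median 0.622%), the lowest Skp1a-labelled library being 1.10 times the highest wt library.

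The question of how the Skp1a-labelled libraries as a whole differ from wt was put to the edgeR quasi-likelihood test, in 1 fit of all groups scaled with TMM, as the mean of the 3 Skp1a-labelled groups against the mean of the 3 wt groups. Of the 13 mRNAs 6 rose at a Benjamini-Hochberg adjusted p under 0.05 and none fell, where 34.3% of all genes rose and 62% were called in either direction. The 6 were mt-Nd4 (log2 fold change 1.34 ± 0.31 SE, adjusted p = 0.00524), mt-Nd4l (1.08 ± 0.25), mt-Nd5 (1.17 ± 0.29), mt-Co2 (1.34 ± 0.35), mt-Co1 (1.33 ± 0.36) and mt-Nd6 (0.81 ± 0.29, adjusted p = 0.0313). All 13 log2 fold changes were above 0, with a median of 0.81 against 0.26 over all genes. The lowest was that of mt-Atp8, 0.11 ± 0.30 (edgeR adjusted p = 0.759), and mt-Cytb did not pass either, with 0.66 ± 0.29 (adjusted p = 0.0747). With the chromosome 1 copies added mt-Nd3 also rose, at 0.90 ± 0.27 (edgeR adjusted p = 0.0174), against 0.55 ± 0.24 (adjusted p = 0.0735) without them.

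The scaling sets the size of this difference. TMM, which centres the bulk of the genes, multiplied library sizes by 1.24 to 1.51 in the Skp1a-labelled libraries and by 0.722 to 0.832 in wt. With library totals in its place the median of all genes moved from 0.26 to 1.01 and all 13 mRNAs rose, where 54.3% of all genes did. Their median was then 1.59, with mt-Co2 highest at 2.12 ± 0.36 and mt-Atp8 lowest at 0.87 ± 0.27. Relative to the median of all genes the members' median was 0.55 higher under TMM and 0.58 higher under library totals, and 12 of 13 members lay above the median of all genes in both. Without Skp1acont lot 2 the TMM fit called 12 of 13 higher (38.5% of all genes), with a median of 0.66. It also called 12 without Skp1acont lot 1 (41.3% of all genes). Without the Skp1acont PI library it called 12 as well, but that count stands without a share of all genes. It is therefore no comparison of the members with all genes.

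**Figure D3:**
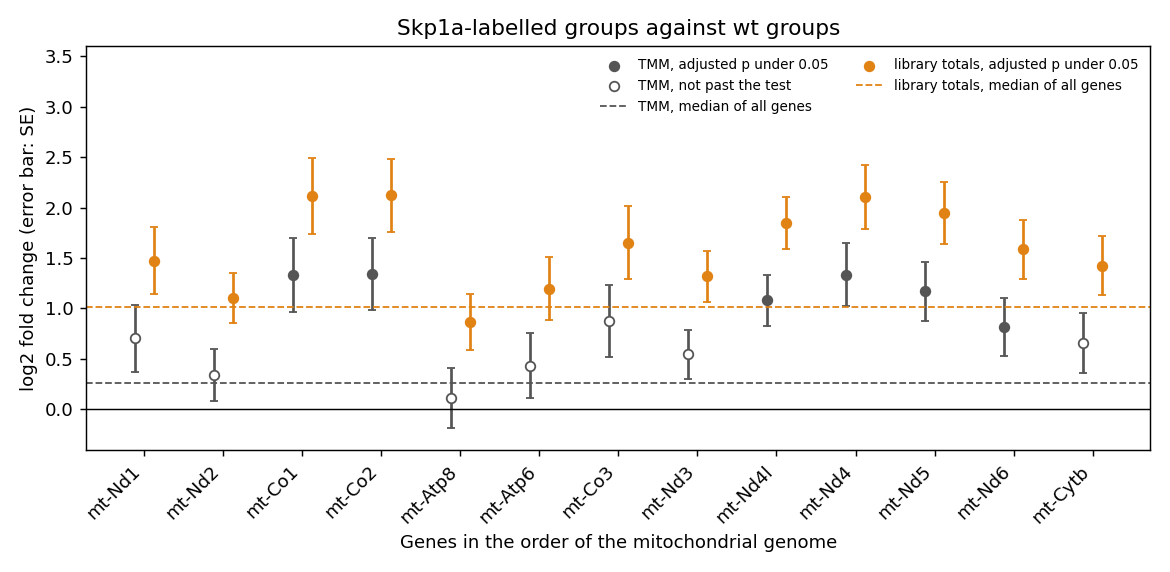
Log2 fold change of each mRNA between the means of the 3 Skp1a-labelled and the 3 wt groups (vertical axis), with its standard error, under TMM (grey) and library totals (orange). Filled points passed an edgeR adjusted p of 0.05, open points did not, and dashed lines mark the median of all genes, 0.26 and 1.01. The mt-Atp8 point is the lowest under both scalings.

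The nuclear genes that encode the partners of these proteins went the other way. Of 74 nuclear genes listed for complexes I, III, IV and V, 67 fell and none rose in the same TMM fit, with a median log2 fold change of -1.78, where 27.8% of all genes fell. With library totals 46 fell and 2 rose (11.7% of all genes fell), with a median of -1.04. The counts were, without Skp1acont lot 2, 69 and 0 with TMM (32% of all genes fell) and 60 and 4 with totals (17.1%). The median of this list thus lay below that of all genes under both scalings, and that of the mitochondrially encoded mRNAs above it under both. The share of cytosolic ribosomal protein genes was lower in the same libraries, and its part in these values was not tested.

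By complex, 33 of 36 complex I genes, 8 of 9 of complex III, 10 of 11 of complex IV and 16 of 18 of complex V fell with TMM. Among them Cox5b, a nuclear subunit of cytochrome c oxidase, had 60.3 to 164 CPM in the Skp1a-labelled and 333 to 458 CPM in the wt libraries (log2 fold change -2.40 ± 0.35, edgeR adjusted p = 0.000708). That was opposite in direction to mt-Co1 and mt-Co2, its partners in the complex. Cox6c and Cox7b of the same complex fell as well (log2 fold changes of -2.51 and -2.66). Uqcrb, a complex III subunit, had 144 to 385 against 734 to 1383 CPM (-2.60 ± 0.37), and Uqcrc1 (-1.80 ± 0.26) and Uqcrh (-2.51 ± 0.42) fell with it. In complex I Ndufs4, an accessory subunit, had 50.8 to 144 against 260 to 441 CPM (-2.33 ± 0.35), and Ndufb4 (-2.28) and Ndufb3 (-2.13) fell with it. For ATP synthase Atp5pb, a stalk subunit, had 85.3 to 312 against 671 to 864 CPM (-2.74 ± 0.42). Atp5md fell by 2.26 and Dmac2l, listed under an older ATP synthase name, by 1.76.

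Genes for the expression of the mitochondrial genome were lower more often than higher under TMM. Of 78 mitochondrial ribosomal protein genes, whose products translate these mRNAs, 65 fell and none rose with TMM, and 42 fell and 5 rose with library totals. For this list and those that follow, the shares of all genes that rose and fell were 34.3% and 27.8% with TMM and 54.3% and 11.7% with totals. Mrps10 had 21.7 to 34.7 CPM in the Skp1a-labelled and 52.5 to 89.0 CPM in the wt libraries (-2.04 ± 0.19, edgeR adjusted p = 0.000196), and Mrps22 (-2.48) and Mrpl1 (-2.47) fell too. Of 22 genes for transcription and replication of the mitochondrial genome 13 fell and none rose, with a median of -0.74, but with totals 4 rose and 5 fell, with a median of 0.02. Tefm, an elongation factor of the mitochondrial RNA polymerase, had 10.6 to 26.9 against 43.6 to 63.5 CPM (-2.59 ± 0.24). Mterf2, of the family of mitochondrial termination factors, and Ssbp1, the single-stranded DNA-binding protein of mitochondria, fell as well (-2.36 and -1.88).

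For 35 genes of mitochondrial RNA processing and stability the split was 20 lower and 1 higher with TMM and 11 lower and 12 higher with totals. Trmt10c, a subunit of the RNase P that cuts the precursors at transfer RNAs, had 20.3 to 34.1 CPM in the Skp1a-labelled and 51.0 to 98.5 CPM in the wt libraries (-2.26 ± 0.19, edgeR adjusted p = 0.000159). Trnt1, which adds CCA ends to transfer RNAs, fell by 2.32 and Trmt5, a transfer RNA methyltransferase, by 1.48. Of 12 translation factor genes 8 fell and none rose with TMM, and 1 fell and 1 rose with totals. Mtrf1, a release factor homologue, fell by 2.33, Mtfmt, which formylates the initiator transfer RNA, by 1.13, and Tsfm, an elongation factor, by 0.82. The last 2 of these did not pass the test with totals (adjusted p = 0.129 and 0.759). Of 15 genes of mitochondrial mass and import 9 fell and 1 rose with TMM, and 6 fell and 3 rose with totals. The outer membrane channel Vdac2 fell by 2.09, and the import subunits Tomm22 (-2.20) and Timm23 (-2.14) fell with it. The fit with totals called, without Skp1acont lot 2, 8 higher and 5 lower of the transcription and replication genes, 14 and 15 of the RNA processing genes, 4 and 2 of the translation factors, 5 and 8 of the mass and import genes and 10 and 53 of the ribosomal protein genes (58.6% of all genes higher).

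Levels were compared between members per length, as CPM per kb of gene. Within a library the highest member was 20.96 to 51.4 times the lowest. In wt, mt-Atp6 was highest with a median of 9130 CPM per kb and lay above the next gene, mt-Atp8 (6835), in 6 of 6 libraries. Then came mt-Co2 (5606), mt-Co3 (4373), mt-Cytb (3474) and mt-Nd1 (3342), of which the last pair did not keep its order, mt-Cytb being higher in 2 of 6 libraries. The genes mt-Co1 (1481), mt-Nd2 (1182) and mt-Nd4 (1107) followed, mt-Co1 being higher than mt-Nd2 in 4 of 6 libraries and mt-Nd2 higher than mt-Nd4 in 3 of 6. Below them lay mt-Nd6 (947), mt-Nd3 (640), mt-Nd4l (315) and mt-Nd5 (289), the last pair keeping its order in 4 of 6 libraries and mt-Nd6 lying above mt-Nd3 in 5 of 6.

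In the Skp1a-labelled libraries mt-Co2 had the highest median, 25849.6 CPM per kb, ahead of mt-Atp6 (20757), but it was the higher of them in only 2 of 5 libraries. The order went on with mt-Co3 (14236), mt-Atp8 (12837), mt-Cytb (8864) and mt-Nd1 (8586). The lower ranks were mt-Co1 (5841), mt-Nd4 (4656), mt-Nd6 (3134), mt-Nd2 (2439), mt-Nd3 (1791), mt-Nd4l (1233) and mt-Nd5 (1209). Neither mt-Co3 and mt-Atp8, nor mt-Cytb and mt-Nd1, nor mt-Nd6 and mt-Nd2, nor mt-Nd2 and mt-Nd3, nor mt-Nd3 and mt-Nd4l, nor mt-Nd4l and mt-Nd5 kept their order in all 5. Between the orders mt-Co2 differed by 2 ranks (rank 1 against 3 in wt), as did mt-Atp8 (4 against 2) and mt-Nd2 (10 against 8). With the copies added mt-Co1 took rank 5 in the Skp1a-labelled libraries (10788 CPM per kb) and rank 7 in wt (2568), and mt-Nd3 rank 10 (2768) and rank 11 (642).

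**Figure D4:**
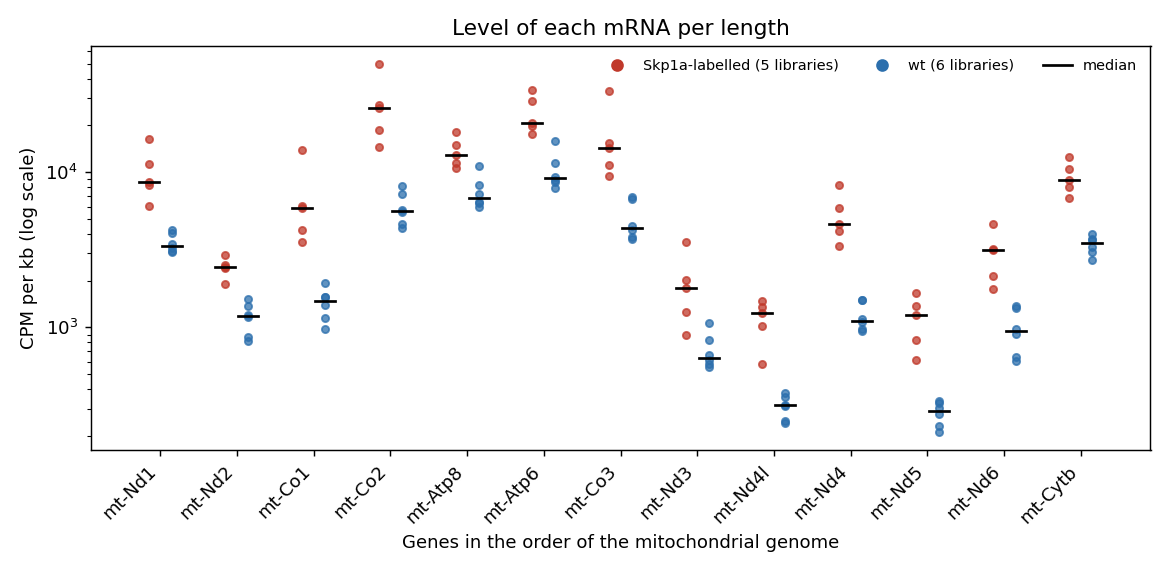
Level of each mRNA per length (CPM per kb of gene, log scale) in genome order. Points are libraries, red for the 5 Skp1a-labelled and blue for the 6 wt libraries, and bars are medians. Levels span more than an order of magnitude between genes, and the red points lie above the blue for 11 of the 13.

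Genes that share an mRNA did not have equal counts per length. The ratio of mt-Nd4 to mt-Nd4l was 3.78 to 6.10 in the Skp1a-labelled and 3.01 to 4.87 in the wt libraries. The ratio of mt-Atp6 to mt-Atp8 was 1.58 and 1.97 in the libraries labelled Skp1aKO, 1.52 and 2.26 in those labelled Skp1acont, 1.53 in Skp1acont PI and 1.30 to 1.46 in the 6 wt libraries. The last ratio did not overlap between Skp1a-labelled and wt libraries as counted. It did with the counts of Gm10925 added to mt-Atp6, at 1.52 to 2.35 against 1.30 to 1.61. The ratio of mt-Nd6 to mt-Nd5, its neighbour on the other strand, was 2.32 to 2.88 against 2.77 to 4.26.

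The make-up of the mitochondrial counts was compared next, with each gene as a share of the summed counts of all 13. Complex IV mRNAs made up 38.1% to 51.6% of these counts in the Skp1a-labelled and 30.5% to 36.3% in the wt libraries, and complex V mRNAs 16.6% to 23.9% against 25.6% to 32.6%. Neither range overlapped, and they moved in opposite directions, as parts of a fixed sum are in part bound to do. Complex I (22.7% to 27.0% against 23.6% to 27.7%) and complex III (9.05% to 12.998% against 10.4% to 14.99%) overlapped. At the complex IV and V limits the nearest libraries were Skp1acont lot 1, at 38.1% and 23.9%, and wt at 9.5 dpc lot 2 (36.3%) and wt PI lot 2 (25.6%).

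By gene, mt-Co1, mt-Co2 and mt-Nd4 took a larger part in all Skp1a-labelled than in all wt libraries, 3 of 13 where 10.5% of all genes had more counts per mitochondrial count. The subunits mt-Atp6 and mt-Atp8 took a smaller part, 2 of 13 where 27.8% of all genes had fewer. Genes outside the 13 are not bound by their sum, so these shares are no like background for the members. The part of mt-Co2 was 16.6% to 21.5% (median 18.2%) against 12.3% to 13.8% (median 13.7%), and that of mt-Nd4 was 7.22% to 7.96% (median 7.70%) against 5.19% to 5.71% (median 5.42%). For mt-Atp6 it was 14.6% to 19.98% (median 18.4%) against 20.9% to 27.1% (median 22.4%), and for mt-Atp8 1.94% to 3.93% (median 3.59%) against 4.62% to 5.56% (median 5.08%). The same 5 genes stood apart in the same directions when the chromosome 1 copies were added to gene and total, with mt-Co1 then at 16.01% to 25.1% against 11.02% to 14.8%. The other 8 genes overlapped. The set depended on the denominator. Against the geometric mean of the 13 genes' counts, without copies, mt-Atp6 overlapped (log2 1.74 to 2.19 against 2.18 to 2.64). There mt-Nd5 stood apart instead (-1.21 to -0.75 against -1.56 to -1.24). With copies added the genes apart from wt by that measure were again the 5 named above.

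None of the 13 passed the edgeR test when counts were scaled to the mitochondrial mRNA total, where 56.9% of all genes did. That scaling holds the sum of the 13 fixed, so they cannot all move in 1 direction. The median log2 fold change was -0.02 for the members and -0.49 for all genes. The 56.9% is therefore no like background for the members. The log2 fold changes ran from -0.67 ± 0.56 for mt-Atp8 (adjusted p = 0.306) to 0.50 ± 0.54 for mt-Nd4 (adjusted p = 0.442), none had an unadjusted p under 0.05, and DESeq2 called 0 of 13. This result turned on single libraries of 1 group. Without Skp1acont lot 2 the same fit called 4 higher and 2 lower (69.3% of all genes called), and without Skp1acont lot 1 it called 4 higher and 4 lower (76.6%). The lone Skp1acont library left in each of those fits is assumed to vary like the other groups. Scaling to the mitochondrial total gave a biological coefficient of variation of 45.3%, against 35.3% with TMM.

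**Figure D5:**
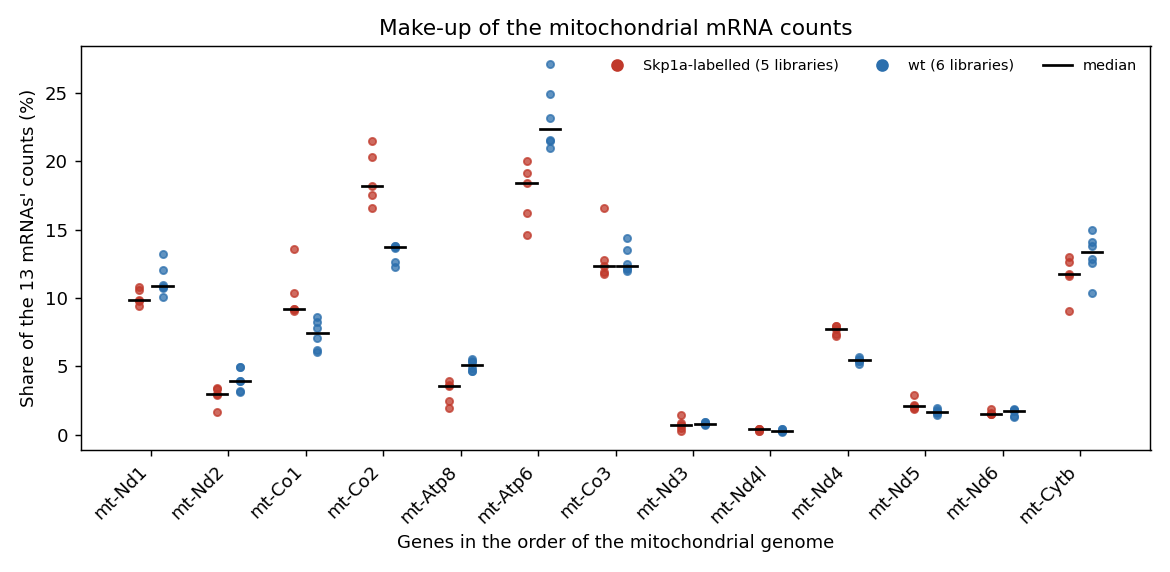
Part of the summed counts of the 13 mRNAs taken by each gene (%, vertical axis) in genome order. Points are libraries, red Skp1a-labelled and blue wt, and bars are medians. The parts of mt-Co1, mt-Co2 and mt-Nd4 are higher and those of mt-Atp8 and mt-Atp6 lower in every red than in every blue library.

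Between wt libraries of the 2 ages, 9.0 and 9.5 dpc, all 13 mRNAs had a higher share of counts at 9.5 dpc in both libraries than in both at 9.0 dpc, where 32.7% of all genes did so. The summed share was 3.82% ± 0.27 (SD, n = 2) at 9.5 dpc and 2.47% ± 0.04 at 9.0 dpc, and within lots the ratio was 1.65 and 1.46. The gene with the largest fold difference was mt-Nd6, the one gene of the minus strand, at 0.0314% and 0.0332% at 9.0 dpc and 0.0715% and 0.0691% at 9.5 dpc. Its part of the mitochondrial counts also differed, at 1.29% and 1.33% against 1.78% and 1.90%. Summed markers of other cell types differed between the same libraries. Those of primitive erythroid cells had 6077 and 6036 CPM at 9.0 dpc and 12487 and 16959 CPM at 9.5 dpc. Mesenchyme markers had 158 and 145 against 388 and 344 CPM, and neural markers 271 and 294 against 564 and 507 CPM. Single genes did not all follow these sums. Of the mesenchyme markers Prrx1, Col1a1 and Col3a1 were higher at 9.5 dpc, and Twist1 and Pdgfra lower. Of the neural markers Otx2, En2, Sox2 and Nes were higher, En1, Pax2, Pax5 and Lmx1b lower, and the others overlapped. The part of these markers in the shares was not tested.

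In the fit of all groups none of the 13 passed the test between these ages (1.6% of all genes did), none had an unadjusted p under 0.05 and DESeq2 called 0. The log2 fold changes ran from 0.15 ± 0.42 for mt-Nd2 to 0.97 ± 0.47 for mt-Nd6 (edgeR adjusted p = 0.484), with 0.58 ± 0.59 for mt-Co1 and 0.25 ± 0.48 for mt-Cytb. This fit takes its spread from all libraries. Fitted on the 6 wt libraries alone, a choice made after seeing the data, 9 of 13 rose and none fell (15% of all genes rose), with mt-Nd6 at 1.01 ± 0.10 (adjusted p = 7.32e-05), mt-Co3 at 0.73 ± 0.09 and mt-Co1 at 0.60 ± 0.12. With the lot as a block, that is, comparing within lots, 11 rose (18.8% of all genes), all but mt-Nd1 and mt-Nd2. In the same wt fit without the block, 46 of 78 mitochondrial ribosomal protein genes fell and none rose (16.7% of all genes fell), while of the 74 nuclear OXPHOS genes 4 rose and 14 fell.

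The wt PI libraries were compared with wt at 9.5 dpc, and the 9.5 dpc libraries enter both this comparison and that of the ages. The summed share was 2.79% ± 0.06 in PI (n = 2), 0.684 and 0.778 times that of the same lot of wt at 9.5 dpc. Of the 13 mRNAs 10 had a lower share in both PI libraries than in both others, where 25.3% of all genes did, and mt-Nd4l a higher one, as did 30.3% of all genes. The shares of mt-Nd4l were 0.0107% and 0.0112% in PI and 0.00923% and 0.00946% in wt at 9.5 dpc, against 0.0854% and 0.0897% and 0.158% and 0.142% for mt-Nd2, another complex I mRNA. With copies added mt-Co1 was lower in PI as well, which made 11 of 13. The marker sums also differed, and their part was not tested. In PI primitive erythroid markers had 6114 and 8363 CPM, mesenchyme markers 260 and 244 CPM and neural markers 414 and 407 CPM. Each sum lay below both wt libraries at 9.5 dpc, but single genes did not all follow. Of the neural markers En1, Pax2, Pax5, Fgf8, Wnt1 and Lmx1b were higher in both PI libraries. Otx2, En2, Sox2, Nes and Pax6 were lower in both.

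Again none passed in the fit of all groups (0.069% of all genes did), none had an unadjusted p under 0.05 and DESeq2 called 0. The log2 fold changes ran from -0.80 ± 0.42 for mt-Nd2 (edgeR adjusted p = 0.653) to 0.20 ± 0.41 for mt-Nd4l, with -0.26 ± 0.59 for mt-Co1, -0.14 ± 0.48 for mt-Cytb and -0.54 ± 0.46 for mt-Nd6. In the fit of the wt libraries alone 9 fell and none rose (12.4% of all genes fell), led by mt-Nd2 at -0.81 ± 0.10 (adjusted p = 0.000587), mt-Nd3 at -0.72 ± 0.15 and mt-Co3 at -0.67 ± 0.09. There mt-Nd4l was at 0.19 ± 0.09 (adjusted p = 0.138). With the copies added mt-Co1 passed in this fit too, at -0.63 ± 0.10 (edgeR adjusted p = 0.00143), against -0.27 ± 0.12 without them. With the lot as a block 11 fell (17.9% of all genes), all but mt-Cytb and mt-Nd4l. In the same wt fit without the block, 36 of 78 mitochondrial ribosomal protein genes rose and 11 fell (15.6% and 12.4% of all genes), and of the nuclear OXPHOS genes 9 rose and 32 fell.

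The libraries labelled Skp1aKO were compared with those labelled Skp1acont, the comparison nearest to the stated aim of the series. The summed share was 9.48% ± 1.07 and 10.9% ± 6.92 (SD, n = 2 each), and the ratio was 1.71 in lot 1 and 0.553 in lot 2, opposite in direction. None of the 13 passed the edgeR test and none of all genes did (0%). Only mt-Nd3 had an unadjusted p under 0.05, at 1.30 ± 0.40 (adjusted p = 0.488), and DESeq2 called that gene alone (0.76% of all genes). Its shares were 0.0706% and 0.123% in the libraries labelled Skp1aKO and 0.0311% and 0.0435% in those labelled Skp1acont, without the counts in Gm28438. With those counts they were 0.0994% and 0.123% against 0.0396% and 0.0963%, and the log2 fold change was 0.68 ± 0.44 (edgeR adjusted p = 0.886). DESeq2 then gave 0.56 ± 0.44 (adjusted p = 0.870) and did not call the gene. At the other end stood mt-Co1 with -0.55 ± 0.59, while mt-Cytb and mt-Nd6 were at -0.02 ± 0.48 and -0.03 ± 0.46 (edgeR adjusted p = 1).

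This comparison turned on each of the Skp1acont libraries. Without Skp1acont lot 2, 6 mRNAs rose in the libraries labelled Skp1aKO (9.79% of all genes rose), among them mt-Nd3 at 1.47 ± 0.25, mt-Nd4l at 1.10 ± 0.23 and mt-Co1 at 0.62 ± 0.22 (edgeR adjusted p = 0.0403). In that fit with the copies added mt-Nd3 was at 1.34 ± 0.22 and still passed, and mt-Co1, at 0.38 ± 0.20, did not (adjusted p = 7.38e-05 and 0.164). Without Skp1acont lot 1, 1 rose and 7 fell (21.2% of all genes rose and 10.1% fell).

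Against wt at 9.5 dpc, 12 of the 13 mRNAs had a higher share in both libraries labelled Skp1aKO, where 63.3% of all genes did, the exception being mt-Atp8. With TMM only mt-Nd4l rose, at 1.32 ± 0.42 (edgeR adjusted p = 0.0347), where 17.6% of all genes rose. Its shares were 0.0440% and 0.0366% in the libraries labelled Skp1aKO. The lowest value was mt-Atp8 at -0.18 ± 0.47, and mt-Co1, mt-Cytb and mt-Nd6 were at 0.98 ± 0.59, 0.56 ± 0.48 and 0.43 ± 0.46. With library totals 7 rose (36.1% of all genes), and mt-Atp8 was at 0.58. Without Skp1acont lot 2, which is in neither group but enters the estimate of the spread, 10 rose with TMM (36.1% of all genes). Leaving out either library labelled Skp1aKO or either wt library ended the call of mt-Nd4l, with 0 of 13 called each time.

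Libraries labelled Skp1acont had a higher share than wt at 9.5 dpc for 12 of 13 mRNAs, all but mt-Nd3, where 54.4% of all genes did, and the summed share was 1.49 times that of wt in lot 1 and 4.34 times in lot 2. With TMM none passed the edgeR test (36.4% of all genes did), 2 had an unadjusted p under 0.05 and DESeq2 called 6 higher (21.1% of all genes). The values ran from -0.56 ± 0.39 for mt-Nd3 (adjusted p = 0.258) to 1.52 ± 0.60 for mt-Co1 (adjusted p = 0.0684), with mt-Cytb at 0.58 ± 0.48 and mt-Nd6 at 0.46 ± 0.46. Adding Gm28438 to mt-Nd3 turned its value to 0.28 ± 0.44 (edgeR adjusted p = 0.620), and its share was then higher in both Skp1acont libraries than in both wt libraries. With library totals 7 mRNAs rose (37.5% of all genes). The TMM fit without Skp1acont lot 2 called mt-Nd4 higher, at 0.63 ± 0.21, and mt-Nd3 lower, at -0.59 ± 0.24 (19.9% and 19.2% of all genes), and without lot 1 it called 9 higher (38.4%). With the copies added and lot 2 left out mt-Nd3 did not pass, at -0.24 ± 0.21 (edgeR adjusted p = 0.374), and mt-Co1 did, at 0.50 ± 0.20 (adjusted p = 0.0434).

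The single Skp1acont PI library had a mitochondrial share of 7.30%. That was 1.22 times the share of Skp1acont of the same lot (5.98%) but below that of Skp1acont lot 2 (15.8%). None of the 13 passed the edgeR test against Skp1acont (0% of all genes did), none had an unadjusted p under 0.05, and DESeq2 called 0. The values ran from -0.86 ± 0.75 for mt-Co1 to 0.86 ± 0.47 for mt-Nd3 (adjusted p = 0.7997), the last being 0.02 ± 0.54 with the copies added, with -0.13 ± 0.59 for mt-Cytb and -0.43 ± 0.58 for mt-Nd6. Without Skp1acont lot 1 the same test called 7 lower (22.1% of all genes), with Skp1acont lot 2 as the only library on the other side. The lone PI library is assumed to vary like the other groups. The difference between the PI effect in Skp1acont and that in wt was tested itself and called none of the 13 (0% of all genes). It had an unadjusted p under 0.05 for mt-Nd3 alone, at 1.57 ± 0.61 (edgeR adjusted p = 0.770), and stood at -0.60 ± 0.94 for mt-Co1, 0.02 ± 0.75 for mt-Cytb and 0.11 ± 0.73 for mt-Nd6. That test passed without Skp1acont lot 2 for mt-Nd3, at 1.72 ± 0.33, and for mt-Nd2, at 1.15 ± 0.30 (edgeR adjusted p = 0.0374), where 0.764% of all genes were called higher. With the copies added the mt-Nd3 value was 0.73 ± 0.69 (edgeR adjusted p = 0.844), and 1.37 ± 0.29 (adjusted p = 0.0143) when Skp1acont lot 2 was also left out.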

How the data were processed

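Embryo RNA was isolated with a Qiagen RNeasy kit and poly(A)-selected with an NEBNext module, per the labels' protocols. The authors deposited unnormalized whole-number counts for 36255 genes in 11 libraries, and the 1 other labelled library is not analysed here. Per the submitters' processing notes, Trim Galore 0.6.7 trimmed the reads and GRCm38 was the genome. Aligner, counter, use of strand and handling of reads with several matches: not given in the sources used here. Positions, lengths and sequences of genes are those of GENCODE M21.

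Shares and CPM used library totals. A count of 0 allows up to 3 counts, or 0.258 to 1.29 CPM by library, for counting error only. In edgeR 4.0.16 (R 4.3.3) the two-sided quasi-likelihood F test was applied to 18837 genes left by filterByExpr, in 1 TMM-scaled fit of all 6 groups, with Benjamini-Hochberg adjustment over all of them and calls at 0.05. The fit was run on simulated data with a smaller spread and far fewer changed genes than here. That run checks the code and does not speak to the error rate in these data. Summed shares were not tested. Alternatives included DESeq2 1.42.0, library totals, other filters, the replicate block, smaller sets of libraries and addition of the chromosome 1 copies.

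Across genes, same-lot deviations from group means correlated at r = 0.297 to 0.343 between wt groups and at r = -0.011 to 0.18 in pairs with a Skp1a label. Pairing by lot was accepted for the wt libraries only, from the data, since no label says what a lot is. Named by rule were mt-Co1, mt-Cytb and mt-Nd6 in every comparison, the members with the highest and lowest log2 fold change in each, and up to 3 genes per list with the smallest adjusted p. The members, lists and rule were chosen with earlier results of these data known.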

Additional observations from a re-analysis of the deposited data

How the results depend on the processing

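The ratio of median mitochondrial shares, 3.13, was 3.33 over nuclear counts, 3.20 with the chromosome 1 copies added and 2.87 to 3.40 with 1 library left out. Shares of all genes called higher depended on the setting. For Skp1aKO against wt they were 17.6% with TMM and 36.1% with library totals. For all Skp1a-labelled against all wt groups they were 34.3% and 54.3%. The counts that follow stand without the share of each setting, so they are no comparison of the members with all genes. Numbers of called mRNAs moved with scaling, filter and libraries. For Skp1aKO against wt (1 as reported) they were 7 with library totals, 8 with totals less the mitochondrial counts, 2 with DESeq2 size factors, 4 with the DESeq2 Wald test, 0 with no filter, 2 with at least 1 CPM in 4 libraries, 10 with only the groups compared and 0 to 10 with 1 library left out. For Skp1acont against wt (0) they were 7, 9, 3, 6, 0, 2, 0 and 0 to 9 in the same order. For all Skp1a-labelled against all wt groups (6) they were 13, 13, 11, 12, 5 and 11, and 5 to 12 with 1 library left out. For Skp1aKO against Skp1acont (0) the Wald test called 1, and 0 to 8 were called with 1 library left out. That range was 0 to 7 for Skp1acont PI against Skp1acont and 0 to 8 relative to the mitochondrial total. For wt PI against wt (0), 9 were called with only the groups compared, 9 with the wt libraries alone, 11 with the replicate block added there, 9 with their library totals and 0 to 5 with 1 library left out. For wt at 9.5 against 9.0 dpc (0) these were 6, 9, 11, 12 and 0 to 4. In the fit of all groups the replicate block changed none of these numbers (6 for all Skp1a-labelled against all wt groups). The fits of wt libraries alone, the added copies, and the removal of Skp1acont lot 2 from comparisons that do not use it were chosen after seeing the data.

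Log2 values that turned sign were mostly near 0. For mt-Atp8 between Skp1aKO and wt they were 0.58 with totals, 0.68 with totals less mitochondrial counts, 0.050 with DESeq2 size factors and with the Wald test, 0.026 with at least 1 CPM in 4 libraries, 0.074 with only the groups compared, and -0.75 to 0.24 with 1 library left out. For mt-Nd3 between Skp1acont and wt they were 0.18 and 0.31 with those totals and 0.28 with the copies added. For Skp1aKO against Skp1acont mt-Cytb was 0.0079 with totals, 0.018 with no filter and 0.0085 with the replicate block, and mt-Nd6 was 0.018 with no filter and 0.014 with the block. With 1 library left out mt-Cytb ran from -0.34 to 0.39, mt-Nd6 from -0.53 to 0.70 and mt-Co1 from -1.20 to 0.62. For Skp1acont PI against Skp1acont mt-Cytb was 0.0049 with no filter, and with 1 library left out mt-Co1 ran from -1.52 to 0.29, mt-Cytb from -0.46 to 0.26 and mt-Nd6 from -0.93 to 0.29. On leaving out 1 library, mt-Nd6 between Skp1acont and wt ran from -0.12 to 0.98, and mt-Atp8 between all Skp1a-labelled and all wt groups from -0.073 to 0.37. The cause was not tested. Alternatives on ribosomal RNA were not run, since no such gene is analysed here.

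Groups of 2 libraries, 1 library for Skp1acont PI, and a Skp1acont pair with shares of 5.98% and 15.8% limit these comparisons. Every member had at least 288 counts in every library. Counts of mt-Co1, mt-Atp6 and mt-Nd3 also depend on how reads were divided with the chromosome 1 copies.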

Other observations

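The part of mt-Atp6 in the mitochondrial counts also differed by lot in the wt libraries. In the 3 lot 1 wt libraries mt-Atp6 made up 24.9% at 9.0 dpc, 27.1% at 9.5 dpc and 23.2% in PI, and in the lot 2 libraries 21.6%, 21.5% and 20.9%. With the chromosome 1 copies added to gene and total the values were 23.6%, 24.9% and 21.8% in lot 1 and 22.9%, 22.2% and 20.7% in lot 2, so the gap between lots narrowed in each of the 3 groups. A lot gap was also present for mt-Atp8, which shares the mRNA of mt-Atp6 and has no 50-base match among annotated nuclear transcripts. Its part was 5.32% at 9.0 dpc, 5.56% at 9.5 dpc and 5.35% in PI in lot 1. In lot 2 it was 4.85%, 4.62% and 4.67%. The cause of the lot gaps was not tested. The more diverged nuclear copies elsewhere held at most 33 counts each in any library.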
